A study of Mus musculus with 8 samples.

Results

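The enzymes that make, recycle and use glutathione, together with the thioredoxin-linked and superoxide-removing enzymes, were followed in brown adipose tissue of mice lacking Prdm16, a transcriptional regulator of brown fat identity. The rule for members uses gene names and no measured value, although the group itself was chosen with earlier results of these data known. It takes every non-control probe named for a cytosolic, mitochondrial or microsomal glutathione transferase (Gsta, Gstk, Gstm, Gsto, Gstp, Gstt, Gstz, Mgst), a glutathione peroxidase (Gpx) or a peroxiredoxin (Prdx), and the probes of Gclc, Gclm, Gsr, Gss, Txn1, Txn2, Txnrd1, Txnrd2, Sod1, Sod2, Sod3 and Nqo1. This gave 53 genes under 72 probes, of 31896 genes under 39429 probes on the array. Of these 53 genes, 48 had a probe bright enough to be tested, as had 21675 genes in all. Gpx5, Gpx6, Gsta1, Gsta2 and Prdx6b did not pass this brightness filter and have no value here.

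Total RNA of brown adipose tissue was compared between Prdm16 knockout and wild-type mice at 6 weeks and at 11 months of age, with 4 biological replicates per genotype and age. On each 2-colour Agilent array a knockout sample was hybridised against a wild-type one matched for age, so that every value is a log2 ratio of knockout over wild type on 1 array. The knockout carried Cy3 on 2 arrays and Cy5 on 2 arrays at either age. Strain, sex, the Prdm16 allele and the cells in which it was deleted are not stated in the labels. The ages were run as separate batches, on separate slides, so a difference between the ages cannot be told apart from a difference between these batches.

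Glutathione is a small thiol that is joined from cysteine, glutamate and glycine by glutamate-cysteine ligase (Gclc, Gclm) and glutathione synthetase (Gss), and returned to its reduced form by glutathione reductase (Gsr) with NADPH. Glutathione peroxidases and glutathione transferases spend it, the first to reduce peroxides and the second to tag electrophiles such as lipid aldehydes for export. Peroxiredoxins remove peroxides through the thioredoxin system, which has one set of enzymes in the cytosol and another in mitochondria, and superoxide dismutases supply the peroxide in the first place. Brown adipocytes burn fat in densely packed mitochondria, where most of their superoxide and peroxide arises.

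The arrays held 43020 non-control spots each, of which 61.2% to 68.2% were well above background in a channel, and between 131 and 247 spots per array were flagged. Within an age, the arrays' log2 ratios correlated over genes with r between 0.481 and 0.677 at 6 weeks and between 0.68 and 0.885 at 11 months, after removal of the dye effect. Prdm16 itself measured -0.58 (adjusted p = 0.0418) at 6 weeks and -0.50 (adjusted p = 0.037) at 11 months, but the 6-week array of replicate 2 read 0.063. The labels do not say which part of the gene was deleted, so this probe may lie outside it. Ucp1, the uncoupling protein that defines brown fat, measured 0.13 (adjusted p = 0.864) at 6 weeks and -4.05 (adjusted p = 0.000417) at 11 months. Skeletal muscle markers varied widely between arrays, with a median over 14 genes of 0.065, -2.81, 2.94 and -3.40 on 6-week replicates 1 to 4. On 11-month replicates 1 to 4 the medians were -0.44, -1.13, -0.27 and 1.725. None of the 14 passed the test at either age.

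At 6 weeks 11 of the 48 tested enzymes were higher in the knockout and 4 were lower at an adjusted p below 0.05, beside 9.23% and 7.07% of all genes tested. At 11 months 19 were higher and 13 lower, beside 18% and 16.8% of all genes. The largest rise at 11 months was in the alpha-class transferase Gsta3, and the largest falls were in the mitochondrial enzymes Sod2, Prdx5, Txn2 and Txnrd2. Across both ages 5 enzymes were higher at each age (Gsr, Gpx1, Gstp2, Mgst1 and Mgst2), 2 were lower at each age (Gss and Prdx5), and Gstt3 was lower at 6 weeks and higher at 11 months. A further 24 passed only at 11 months, 7 passed only at 6 weeks, and 9 passed at neither. All genes too had more calls at 11 months (7554) than at 6 weeks (3533). How many of all genes passed at both ages or at a single age was not counted, so this split has no matching share. The median log2 ratio of the 48 was 0.11 at 6 weeks and 0.12 at 11 months, beside -0.00094 and 0.0084 over all genes. In bulk tissue, fewer cells of a type and less RNA per cell cannot be told apart.

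At 11 months the counts of members called stayed within 1.5 times of these when any 1 array was left out, but at 6 weeks they did not. Without 1 of the 6-week arrays the 11 higher calls became 5 (replicate 1), 5 (replicate 2), 6 (replicate 3) and 6 (replicate 4), and the 4 lower calls became 2 in each case. They became 7 and 2 without the 11-month array of replicate 2, and the lower calls became 2 without that of replicate 1. With the 3 arrays of strongest muscle marker ratios left out, which are 6-week replicates 2, 3 and 4, only Mgst2 and Gclm stayed higher and Gstk1 lower at 6 weeks. That setting leaves a single 6-week array, whose spread is taken to be that of the others. The deposited log2 ratios lost the 6-week calls of Gpx1, Gstp2, Prdx1, Prdx5 and Sod3. The scanner software's ratio lost these and those of Gclc and Txn1. With arrays centred on their median in place of loess, 2 members were higher (Mgst1 and Mgst2) and 1 lower (Gstk1) at 6 weeks and 14 higher and 5 lower at 11 months, and the share of all called genes that were higher moved from 56.6% to 70% at 6 weeks and from 51.7% to 70.9% at 11 months. The 11-month calls lost with that centring were those of Gpx1, Gsr, Gstp2, Nqo1 and Prorsd1 among the higher and Gpx4, Gss, Gsta4, Gstm5, Gsto1, Gsto2, Prdx3 and Txnrd1 among the lower, with adjusted p between 0.0507 (Gsto2) and 0.944 (Gstm5).

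**Figure D1:**
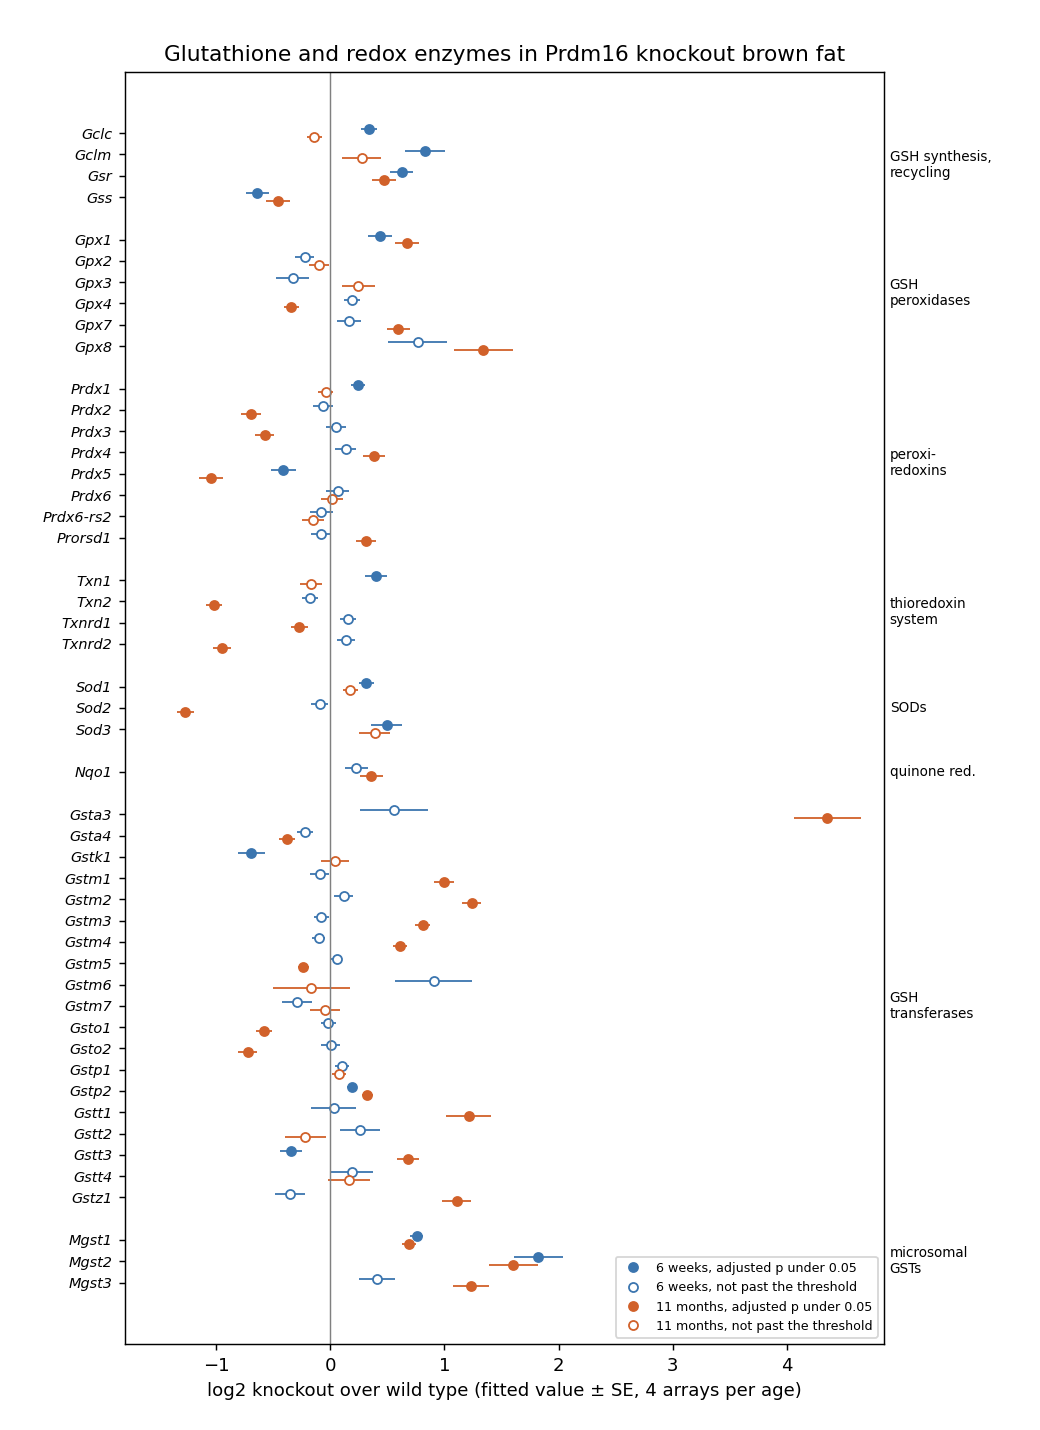
Fitted log2 ratio of knockout over wild type for the 48 tested enzymes, grouped by role, at 6 weeks (blue) and 11 months (orange). Points are fitted values from 4 arrays per age, bars are ± SE and filled points passed an adjusted p of 0.05; Gsta3 at 11 months, at 4.36, lies far to the right of the others.

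Gsta3, which conjugates glutathione to electrophiles and isomerises steroid intermediates, gave the largest value of all members. Its log2 ratios on replicates 1 to 4 were 1.43, 1.08, 0.052 and -0.34 at 6 weeks and 4.25, 4.35, 5.32 and 3.50 at 11 months. Every 11-month array lay above every 6-week array. The fitted ratio was 0.56 ± 0.29, adjusted p = 0.235 at 6 weeks and 4.36 ± 0.29, adjusted p = 6.25e-05 at 11 months, the latter 20.5-fold higher in the knockout. A second Gsta3 probe gave 3.57 at 11 months. The difference between the ages was 3.80 ± 0.42 (adjusted p = 0.00226). Gsta3 passed at 6 weeks too without 11-month replicate 4 (adjusted p = 0.0128), with an SE of 0.097 in place of 0.29, and without the 3 arrays of strongest muscle marker ratios the difference between the ages was 2.98 (adjusted p = 0.0902).

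Because many glutathione enzymes are described as targets of the transcription factor NRF2, which binds antioxidant response elements, the core of that element (TGACNNNGC, on both strands) was searched in the 250 bases before each gene's start in RefSeq sequences of build GRCm38.p6. Of 45 members with an entry, 8 held it, beside 11.5% of all gene symbols and 10.2% of all promoters of that length. These were Gclm, Gsta3, Gstm5, Gstm7, Mgst1, Prdx1, Sod1 and Txnrd1. Gsta3 is shown in full because its value stood apart, from chr1:21240335-21240584 on the plus strand, 5′ to 3′ in the direction of the gene, with the match in capitals:
Gsta3: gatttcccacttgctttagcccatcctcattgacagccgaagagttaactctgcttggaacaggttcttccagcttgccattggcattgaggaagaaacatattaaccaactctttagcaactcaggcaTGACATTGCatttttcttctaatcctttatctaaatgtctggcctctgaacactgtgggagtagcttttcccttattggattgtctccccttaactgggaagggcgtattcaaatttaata

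The match began 121 bases before the start of Gsta3. Of the other members with a match, the 30 bases around it are given for those that passed a test, in the direction of the gene, so that a match on the opposite strand appears as its complement (GCNNNGTCA). These were Gclm, Mgst1, Prdx1, Sod1, Txnrd1 and Gstm5.
Gclm: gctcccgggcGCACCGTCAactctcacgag
Mgst1: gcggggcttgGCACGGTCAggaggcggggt
Prdx1: cagggaaagcGCTGAGTCAtcccccgtagg
Sod1: gccaaggtggGCGTGGTCAgactcaggcct
Txnrd1: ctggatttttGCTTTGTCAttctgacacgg
Gstm5: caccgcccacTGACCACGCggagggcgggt

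These members did not move together: at 11 months Gsta3 and Mgst1 rose, Txnrd1 and Gstm5 fell, and Gclm, Prdx1 and Sod1 did not pass the test. At 6 weeks Gclm, Mgst1, Prdx1 and Sod1 rose. A match to these letters is a description of the sequence and not a binding site.

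The 4 enzymes of glutathione synthesis and recycling all passed at 6 weeks, 3 upward and 1 downward, beside 9.23% and 7.07% of all genes. Gclc, the catalytic subunit of the rate-limiting ligase, had ratios of 0.50, 0.22, 0.37 and 0.27 at 6 weeks and -0.05, -0.048, -0.30 and -0.16 at 11 months. It was higher on all 4 arrays of the first age and lower on all 4 of the second, with no overlap. The fitted values were 0.34 ± 0.067, adjusted p = 0.0167 and -0.14 ± 0.067, adjusted p = 0.144, and their difference was -0.48 (adjusted p = 0.0141). The 6-week call for Gclc was lost without 6-week replicate 1 (adjusted p = 0.0635) and without replicate 3 (adjusted p = 0.0622).

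Gclm, the modifier subunit of the same ligase, read 1.55, 0.60, 0.54 and 0.63 at 6 weeks and 0.41, 0.54, 0.044 and 0.10 at 11 months. Replicate 1 at 6 weeks stood well above the other 3 arrays. The fitted 6-week value was 0.83 ± 0.17, adjusted p = 0.02, and it was 0.55 without that array. At 11 months the fitted value was 0.27 ± 0.17, adjusted p = 0.262, and it passed without 6-week replicate 1 (adjusted p = 0.0267).

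Gsr, which restores reduced glutathione, was higher on all 8 arrays, at 0.78, 0.49, 0.61 and 0.62 and then 0.57, 0.82, 0.035 and 0.45. It rose 1.54-fold at 6 weeks (adjusted p = 0.00942) and 1.38-fold at 11 months (adjusted p = 0.0105), the latter call being lost without 11-month replicate 2 (0.37, adjusted p = 0.0578). Gss, which joins glycine in the last step of synthesis, was lower on all 8 arrays, at -0.57, -0.43, -0.59 and -0.96 and then -0.16, -0.59, -0.59 and -0.49. It fell 1.56-fold at 6 weeks (adjusted p = 0.00869) and 1.37-fold at 11 months (adjusted p = 0.0115). The 11-month call for Gss was lost without replicate 2 (adjusted p = 0.062) and without replicate 3 (adjusted p = 0.0516).

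Of 6 tested glutathione peroxidases, 1 was higher at 6 weeks, and 3 were higher and 1 lower at 11 months. The shares of all genes were 9.23% higher at 6 weeks, and 18% higher and 16.8% lower at 11 months. The count of lower ones was near its share. Gpx1, the abundant cytosolic form, was higher on all 8 arrays, at 0.47, 0.61, 0.19 and 0.49 and then 0.93, 0.69, 0.33 and 0.72. Its fitted values were 0.44 ± 0.11, adjusted p = 0.0299 at 6 weeks and 0.67 ± 0.11, adjusted p = 0.00225 at 11 months. The 6-week call was lost without 6-week replicates 1 (adjusted p = 0.122), 2 (0.117) or 4 (0.0892) and without 11-month replicate 2 (0.0544).

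Gpx8, a peroxidase of the endoplasmic reticulum membrane, read 1.22, 1.38, 0.32 and 0.15 at 6 weeks and 1.41, 1.47, 2.0 and 0.48 at 11 months. It was higher on every array but spread widely within each age. The 11-month value was 1.34 ± 0.26, adjusted p = 0.00563, and the 6-week value of 0.77 missed the threshold (adjusted p = 0.0812).

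Gpx7, another peroxidase of the endoplasmic reticulum, was higher on all 4 arrays at 11 months. Its ratios were -0.073, -0.14, 0.52 and 0.35 at 6 weeks and 0.66, 0.59, 0.31 and 0.83 at 11 months, with 0.60 ± 0.10, adjusted p = 0.00354 at the later age.

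Gpx4, which reduces lipid hydroperoxides within membranes, went the other way. It read 0.11, 0.30, 0.057 and 0.29 at 6 weeks, all above 0, and -0.50, -0.41, -0.30 and -0.16 at 11 months, all below 0. It fell 1.27-fold at 11 months (adjusted p = 0.00607), and the ages differed by -0.53 (adjusted p = 0.00999). With arrays centred on their median in place of loess the 11-month value was -0.26 (adjusted p = 0.351). Gpx2 and Gpx3 passed at neither age, with fitted values between -0.33 and 0.24.

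Among the 3 superoxide dismutases only the mitochondrial enzyme fell at 11 months. Sod2, the manganese enzyme of the mitochondrial matrix, read -0.25, 0.16, -0.19 and -0.09 at 6 weeks and -1.25, -1.38, -1.28 and -1.17 at 11 months. The 11-month arrays lay close together and all below the 6-week arrays. The fall was 2.41-fold (-1.27 ± 0.073, adjusted p = 3.39e-05), against -0.095 ± 0.073, adjusted p = 0.413 at 6 weeks. The ages differed by -1.18 ± 0.10 (adjusted p = 0.00128).

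Sod1, the copper-zinc enzyme of the cytosol, read 0.057, 0.10, 0.47 and 0.64 at 6 weeks and 0.56, 0.59, -0.17 and -0.28 at 11 months. Its ratio followed the dye at both ages, being larger where the knockout carried Cy5. With the dye modelled it was 0.32 ± 0.067, adjusted p = 0.0207 at 6 weeks and 0.18 ± 0.067, adjusted p = 0.079 at 11 months, and without a dye term the 6-week call was lost (adjusted p = 0.265). It was also lost without 6-week replicates 1 (adjusted p = 0.094), 2 (0.0841) or 4 (0.0664).

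Sod3, the secreted form, read 0.66, 1.11, -0.05 and 0.26 at 6 weeks and 0.52, 0.058, 0.29 and 0.69 at 11 months. The fitted values were 0.50 ± 0.14, adjusted p = 0.0455 and 0.39 ± 0.14, adjusted p = 0.0589. Its 6-week call was lost without any 1 of the 6-week arrays, with adjusted p between 0.0558 and 0.162, and without 11-month replicates 2 (0.0736) or 4 (0.054). Its 11-month value passed without 6-week replicate 2 (adjusted p = 0.0403) or 11-month replicate 3 (0.0294).

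In the thioredoxin system 3 of 4 members were lower at 11 months, beside 16.8% of all genes. All 4 had a lower ratio at 11 months than at 6 weeks, beside 9.76% of all genes. Txn2, mitochondrial thioredoxin, read -0.36, -0.038, -0.20 and -0.12 at 6 weeks and -1.04, -1.14, -1.05 and -0.86 at 11 months, and the ages did not overlap. It fell 2.03-fold at 11 months (-1.02 ± 0.07, adjusted p = 6.79e-05), and the ages differed by -0.84 (adjusted p = 0.00271). Txnrd2, the reductase that recharges it, read 0.46, 0.56, -0.30 and -0.17 at 6 weeks and -1.04, -1.13, -0.86 and -0.75 at 11 months. It fell 1.93-fold at 11 months (-0.95 ± 0.079, adjusted p = 0.000132), with no overlap between ages and a difference of -1.08 (adjusted p = 0.00195). At both ages the Txnrd2 ratio was lower where the knockout carried Cy5.

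Txn1, the cytosolic thioredoxin, read 0.19, 0.19, 0.75 and 0.46 at 6 weeks, all above 0, and -0.38, 0.062, -0.13 and -0.22 at 11 months. It measured 0.40 ± 0.10, adjusted p = 0.0299 at 6 weeks and -0.17 ± 0.10, adjusted p = 0.219 at 11 months. The 6-week call was lost without any 1 of the 6-week arrays, with adjusted p between 0.0732 and 0.113. Txnrd1, its selenium-containing reductase, read 0.23, 0.12, 0.27 and 0.003 and then -0.21, -0.075, -0.34 and -0.45. It was lower on all 4 arrays at 11 months (-0.27 ± 0.072, adjusted p = 0.0224), a call that was lost without 11-month replicates 1 (adjusted p = 0.0761), 3 (0.07) or 4 (0.0907).

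Of 8 tested peroxiredoxin entries, 2 were higher and 3 lower at 11 months, beside 18% and 16.8% of all genes. The count of higher ones was near its share. Prdx5, found in mitochondria, peroxisomes and cytosol, was lower on all 8 arrays, at -0.60, -0.18, -0.51 and -0.35 and then -1.10, -1.29, -1.16 and -0.63. All 11-month arrays lay below the 6-week arrays. It fell 1.33-fold at 6 weeks (adjusted p = 0.0391) and 2.06-fold at 11 months (adjusted p = 0.000314). The 6-week call was lost without any 1 of the 6-week arrays, with adjusted p between 0.0682 and 0.167, and without 11-month replicates 1 (0.0616) or 2 (0.0573).

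Prdx3, the peroxiredoxin of the mitochondrial matrix, read 0.12, 0.53, -0.046 and -0.41 at 6 weeks and -0.79, -0.91, -0.27 and -0.33 at 11 months. It was lower on all 4 arrays at the later age (-0.57 ± 0.084, adjusted p = 0.00165), although its 6-week replicate 4 overlapped them as measured. At both ages its ratio was lower where the knockout carried Cy5. With the dye effect removed, its arrays ran from -0.16 to 0.25 at 6 weeks and from -0.63 to -0.51 at 11 months. Without a dye term the difference between the ages was not called. Prdx2, a cytosolic form abundant in red cells, read -0.066, -0.054, -0.036 and -0.10 and then -0.94, -0.98, -0.57 and -0.28. It fell 1.62-fold at 11 months (-0.70 ± 0.089, adjusted p = 0.00088). Of 8 listed red cell markers 4 could be tested, and none of these passed at either age. The part of red cells in the Prdx2 values was not tested.

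Prdx1, the main cytosolic peroxiredoxin, read 0.40, 0.46, 0.14 and -0.028 at 6 weeks and -0.084, -0.11, 0.11 and -0.079 at 11 months. It rose 1.18-fold at 6 weeks (adjusted p = 0.0423), a call that was lost without 6-week replicates 1, 2 or 3, with adjusted p between 0.131 and 0.156, and without 11-month replicates 1, 2 or 3, with adjusted p between 0.0583 and 0.0695. A second, dimmer Prdx1 probe read 0.85, 0.72, 0.43 and 0.26 at 6 weeks, with a fitted value of 0.56 (adjusted p = 0.0138). Prdx4, which acts in the endoplasmic reticulum, was higher on all 4 arrays at 11 months, at 0.52, 0.43, 0.50 and 0.086, after 0.26, -0.043, 0.33 and -0.011 at 6 weeks. The later value was 0.38 ± 0.092, adjusted p = 0.0148, and it was lost without 11-month replicates 1, 2 or 3, with adjusted p between 0.0587 and 0.0696.

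Prorsd1, whose probe the array names Prdxdd1, is a prolyl-tRNA editing domain protein and not a peroxiredoxin, and it is a member through its name alone. It read -0.13, 0.068, -0.16 and -0.095 and then -0.011, 0.029, 0.53 and 0.71, with 0.31 ± 0.087, adjusted p = 0.0259 at 11 months. Its brighter probe shares 20 or more bases with 6 probes of other names, and its other probe gave -0.14 at 11 months (adjusted p = 0.205), so its direction there depended on the probe. The other probe, which shares no such run, gave 0.30 at 6 weeks (adjusted p = 0.0363) and -0.44 in the difference between ages (adjusted p = 0.0313). The brighter probe gave -0.079 and 0.39 in these comparisons. The 11-month call was also lost without replicates 2 (adjusted p = 0.0546), 3 (0.0837) or 4 (0.104). Prdx6 and Prdx6-rs2 passed at neither age, with fitted values between -0.15 and 0.064.

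**Figure D2:**
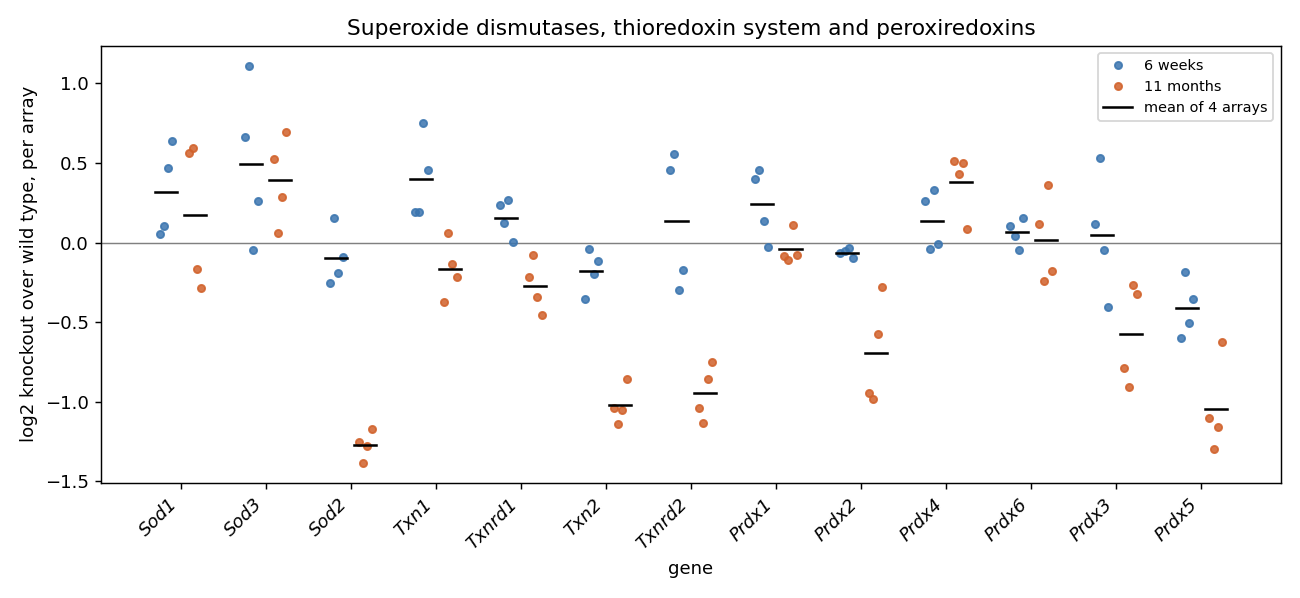
Log2 ratio of knockout over wild type on each array (points, 4 per age) and the mean of 4 arrays (black bars) for superoxide dismutases, thioredoxins, thioredoxin reductases and peroxiredoxins, at 6 weeks (blue) and 11 months (orange). The mitochondrial enzymes Sod2, Txn2 and Txnrd2 lie between -1.38 and -0.75 on every 11-month array, below all their 6-week arrays.

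Nqo1, a quinone reductase and a standard NRF2 target, was dim on these arrays. It read 0.54, 0.26, 0.12 and -0.014 at 6 weeks and 0.35, 0.22, 0.14 and 0.72 at 11 months, above 0 on all 4 of the later arrays. The fitted value was 0.36 ± 0.10, adjusted p = 0.0272, but the scanner software's ratio gave 1.19 and the deposited ratio 0.64. Leaving out 11-month replicates 1 (adjusted p = 0.117), 2 (0.0895) or 4 (0.111) ended the call.

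Of 19 tested glutathione transferases outside the microsomal group, 9 were higher and 4 lower at 11 months, while at 6 weeks 1 was higher and 2 were lower. The shares of all genes were 18% and 16.8% at 11 months and 9.23% and 7.07% at 6 weeks. The 4 lower at 11 months and both 6-week counts were near these shares. The alpha and mu classes each held members called in both directions: Gsta3 rose and Gsta4 fell, and Gstm1, Gstm2, Gstm3 and Gstm4 rose while Gstm5 fell. Gsto1 and Gsto2, of the omega class, both fell.

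The mu-class genes lie side by side on chromosome 3 and have similar sequences, so probes may take up RNA of a neighbour. No mu-class probe shared a run of 20 bases with another probe, but probes were not compared with a neighbour's RNA. The probe that stands for Gstm1 is the exception in its place, since the array's annotation (mm9) puts it on chromosome 5. Gstm1 read 0.042, -0.0086, -0.11 and -0.29 at 6 weeks and 0.89, 0.91, 1.36 and 0.83 at 11 months, with replicate 3 well above the other later arrays. It rose 2-fold at 11 months (1.0 ± 0.084, adjusted p = 0.000136), and its other probe, placed on chromosome 3, gave 0.72.

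Gstm2 read 0.24, 0.34, 0.11 and -0.22 and then 0.89, 0.92, 1.71 and 1.42, with no overlap between ages. It rose 2.36-fold (1.24 ± 0.082, adjusted p = 5.91e-05), and its other probes gave 0.90 and 1.12. The difference between the ages was 1.12 (adjusted p = 0.00195) and passed under all the settings tried.

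Gstm3 read -0.061, 0.05, -0.0094 and -0.30 and then 0.78, 0.68, 0.99 and 0.79. All its later arrays lay above its earlier ones, and it rose 1.75-fold (0.81 ± 0.066, adjusted p = 0.000119). A second Gstm3 probe was well above background in 0 of 16 channel measurements.

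Gstm4 read 0.067, 0.18, -0.27 and -0.39 and then 0.48, 0.36, 0.71 and 0.90, giving 0.61 ± 0.057, adjusted p = 0.000208 at 11 months. Its other probe, almost as bright, gave -0.20 (adjusted p = 0.0346), and the mean of both gave 0.21. The direction of Gstm4 therefore depended on the probe.

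Gstm5 followed the dye at both ages, reading 0.30, 0.28, -0.15 and -0.18 and then -0.40, -0.49, -0.085 and 0.031. With the dye modelled it was lower at 11 months (-0.24 ± 0.049, adjusted p = 0.00764), and without a dye term this was not called (adjusted p = 0.169). Gstm6 and Gstm7 passed at neither age.

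The theta-class enzyme Gstt1 read -0.10, 0.10, -0.10 and 0.21 at 6 weeks and 1.1, 0.74, 0.88 and 2.13 at 11 months, and rose 2.32-fold at the later age (1.21 ± 0.20, adjusted p = 0.00253). Gstt3 read -0.61, -0.24, -0.21 and -0.32, all below 0, and then 0.93, 0.75, 0.28 and 0.76, all above 0. It was -0.35 ± 0.10, adjusted p = 0.046 at 6 weeks and 0.68 ± 0.10, adjusted p = 0.00131 at 11 months. Its 6-week call was lost without any 1 of the 6-week arrays (adjusted p between 0.0535 and 0.193) and without 11-month replicates 1 (0.0622) or 2 (0.0753).

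Gstz1, which also carries out a step of tyrosine breakdown, read -0.61, -0.25, -0.37 and -0.19 at 6 weeks and 1.20, 1.01, 1.52 and 0.69 at 11 months. The signs were opposite on all arrays of the 2 ages. It rose 2.15-fold at 11 months (1.11 ± 0.13, adjusted p = 0.000577), and the ages differed by 1.46 (adjusted p = 0.0031).

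The omega-class genes, which reduce dehydroascorbate and other substrates rather than conjugating them, fell. Gsto1 read 0.33, 0.24, -0.24 and -0.41 and then -0.79, -0.75, -0.27 and -0.51, with -0.58 ± 0.066, adjusted p = 0.000503 at 11 months. At both ages its ratio was lower where the knockout carried Cy5, and without a dye term its difference between the ages was not called. Gsto2 read -0.078, 0.28, -0.27 and 0.085 and then -0.70, -0.72, -0.80 and -0.68, with -0.72 ± 0.084, adjusted p = 0.000545. Both were below 0 on all 4 later arrays, and with median centring neither passed (-0.42, adjusted p = 0.142, and -0.51, adjusted p = 0.0507).

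Gsta4, which conjugates the lipid aldehyde hydroxynonenal, read 0.016, -0.11, -0.54 and -0.26 and then -0.34, -0.50, -0.31 and -0.38. It fell 1.3-fold at 11 months (-0.38 ± 0.072, adjusted p = 0.00509), opposite to Gsta3, and measured -0.15 with median centring (adjusted p = 0.488).

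Gstk1, an enzyme of mitochondria and peroxisomes, changed at 6 weeks. It read -1.08, -0.70, -0.45 and -0.53 at 6 weeks and 0.05, -0.27, 0.24 and 0.15 at 11 months, without overlap. It fell 1.61-fold at 6 weeks (-0.69 ± 0.12, adjusted p = 0.0108), and the difference of 0.73 between the ages (adjusted p = 0.0242) was lost without 6-week replicate 2 (adjusted p = 0.0638) and without 11-month replicates 1, 3 or 4, with adjusted p between 0.0572 and 0.0578.

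Gstp2 was slightly higher on all 8 arrays, at 0.22, 0.21, 0.18 and 0.15 and then 0.35, 0.36, 0.33 and 0.27. The fitted values were 0.19 ± 0.047, adjusted p = 0.0336 and 0.32 ± 0.047, adjusted p = 0.00159, while its second probe gave 0.06 at 11 months (adjusted p = 0.481). That second probe matched the probe of Gstp1 at 30 of 35 aligned bases, so it may take up Gstp1 RNA. The 6-week call was lost without any 1 of the 6-week arrays, with adjusted p between 0.0782 and 0.13, and without 11-month replicates 1 (0.0529) or 2 (0.0596). Gstp1, Gstt2 and Gstt4 passed at neither age, with fitted values between -0.22 and 0.26. Gstt4 was not well above background in any wild-type sample at 11 months.

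The microsomal transferases, membrane proteins that also act on lipid peroxides and leukotrienes, were all 3 higher at 11 months, and Mgst1 and Mgst2 were higher at 6 weeks too. The shares of all genes called higher were 18% at 11 months and 9.23% at 6 weeks. Mgst1 had the most even ratios of the group, at 0.70, 0.68, 0.89 and 0.76 and then 0.76, 0.63, 0.79 and 0.58. It rose 1.69-fold at 6 weeks (adjusted p = 0.000748) and 1.61-fold at 11 months (adjusted p = 0.000144).

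Mgst2 had the largest ratio of any member at 6 weeks. It read 2.79, 1.44, 1.32 and 1.74 and then 1.68, 1.07, 1.53 and 2.12, with replicate 1 highest at 6 weeks. It rose 3.53-fold (1.82 ± 0.22, adjusted p = 0.00307) and 3.03-fold (1.60 ± 0.22, adjusted p = 0.00107), and both calls passed under all the settings tried. Mgst3 read 0.66, 0.12, 0.34 and 0.51 and then 1.19, 1.1, 0.82 and 1.83, rising 2.35-fold at 11 months (1.24 ± 0.16, adjusted p = 0.000831).

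**Figure D3:**
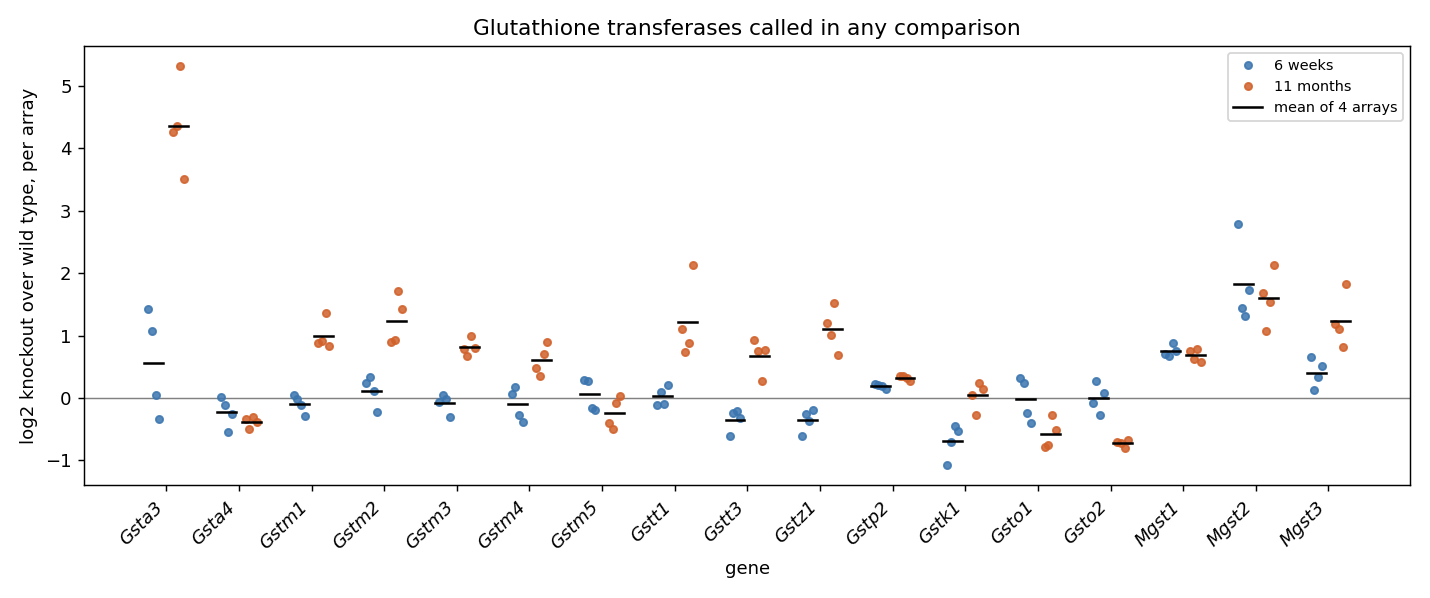
Log2 ratio of knockout over wild type on each array (points, 4 per age) and the mean of 4 arrays (black bars) for the glutathione transferases that passed in at least 1 comparison, at 6 weeks (blue) and 11 months (orange). Gsta3 reaches between 3.50 and 5.32 on the 11-month arrays, and the Mgst1 arrays of both ages lie between 0.58 and 0.89.

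The knockout effect itself differed between the ages for 23 of the 48 enzymes, 10 with a higher and 13 with a lower ratio at 11 months, beside 8.52% and 9.76% of all genes. The higher ones were all transferases: Gsta3, Gstz1, Gstt1, Gstm2, Gstm1, Gstt3, Gstm3, Mgst3, Gstk1 and Gstm4. The lower ones were Sod2, Txnrd2, Txn2, Gsto2, Prdx5, Prdx2, Prdx3, Txn1, Gsto1, Gpx4, Gclc, Txnrd1 and Gstm5. The direction for Gstm4 depended on the probe, since its other probe gave a difference of -0.30 (adjusted p = 0.0469). With the 3 muscle-marked 6-week arrays left out 2 were called higher (Gstk1 and Gstm2) and 2 lower (Txnrd2 and Gclm), and the cause was not tested. Of the 20 settings tried beside the reported one, the difference was lost under 12 for Gstm5, 8 each for Prdx5, Txnrd1 and Mgst3, and 6 each for Txn1 and Gstt1. For Mgst3 it was lost without any 1 of the 6-week arrays (adjusted p between 0.055 and 0.106) and without 11-month replicates 1 (0.0843) or 2 (0.0847), and for Gstm5 without any 1 of the 6-week arrays (between 0.0569 and 0.0685) and without 11-month replicates 2 (0.0786) or 3 (0.0597). For Prdx5 it was lost without 6-week replicates 2, 3 or 4 and 11-month replicates 1, 2 or 3 (between 0.0618 and 0.082), and for Txnrd1 without 6-week replicates 1, 2 or 3 and 11-month replicates 1, 3 or 4 (between 0.0598 and 0.0745). For Txn1 it was lost without 6-week replicates 2, 3 or 4 or 11-month replicate 2 (between 0.0551 and 0.0625), for Gstt1 without 6-week replicates 1, 2 or 3 or 11-month replicate 1 (between 0.0586 and 0.0716), and for Prdx2 without 11-month replicate 2 (0.0504).

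**Figure D4:**
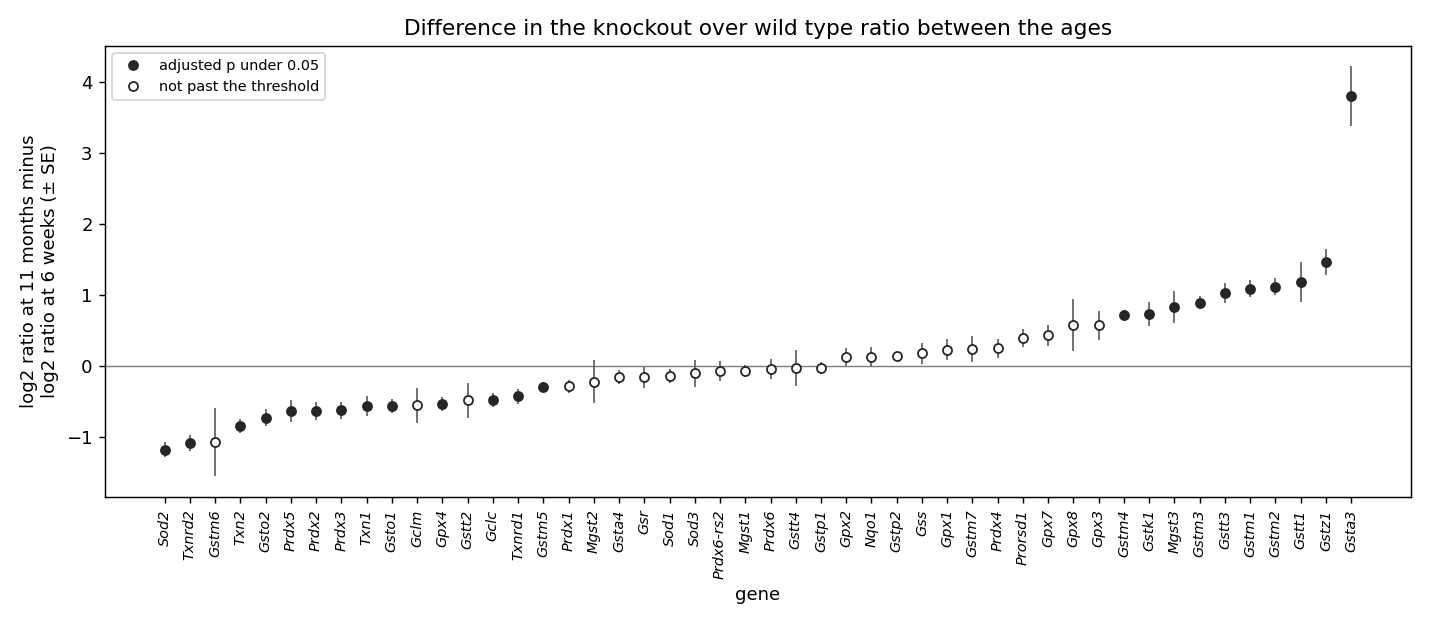
Difference between the log2 knockout over wild type ratio at 11 months and at 6 weeks for the 48 tested enzymes, ordered by value, with ± SE bars; filled points passed an adjusted p of 0.05. Sod2 is the lowest at -1.18 and Gsta3 the highest at 3.80; age and batch cannot be told apart in this difference.

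Enzymes that feed or repair these systems were read from lists of genes by function, whose counts stand beside 9.23% higher and 7.07% lower of all genes at 6 weeks and 18% and 16.8% at 11 months. Of 10 NADPH-producing enzymes, which supply the reducing power of Gsr and the thioredoxin reductases, 7 were higher at 6 weeks and none lower. Among them Me1, malic enzyme, measured 2.28 (adjusted p = 0.0166), Pgd of the pentose phosphate pathway measured 1.52 (adjusted p = 0.00717), and Rpia measured 0.98 (adjusted p = 0.0155). At 11 months 3 were higher and 1 lower, among them Me1 at 2.14 (adjusted p = 0.00826), Nnt at 1.31 (adjusted p = 0.021) and the mitochondrial Idh2 at -1.09 (adjusted p = 0.0321).

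Of 16 enzymes of glutathione supply and breakdown, 3 were higher and 3 lower at 6 weeks, and 3 higher and 2 lower at 11 months, the latter near the shares of all genes. Cth, which makes cysteine, measured -1.02 (adjusted p = 0.0135) at 6 weeks and 0.64 (adjusted p = 0.0323) at 11 months, and Cbs before it measured -0.76 (adjusted p = 0.0404) at 6 weeks. Ggt6, of the gamma-glutamyl transferase family, measured 1.39 (adjusted p = 0.000748) at 6 weeks. Chac1, which degrades glutathione, measured 1.04 (adjusted p = 0.00993) at 11 months, while Oplah, which opens 5-oxoproline to glutamate, measured -0.82 (adjusted p = 0.00907) and the glyoxalase Hagh -0.74 (adjusted p = 0.0026).

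Of 18 thiol and methionine sulfoxide repair genes, 3 were higher and 1 lower at 6 weeks, and 4 higher and 3 lower at 11 months, the latter near the shares of all genes. The methionine sulfoxide reductase Msrb1 measured 1.92 (adjusted p = 0.000943) and 1.26 (adjusted p = 0.000793) at the 2 ages. Msrb2, its mitochondrial relative, measured -1.69 (adjusted p = 9.03e-05) at 11 months, and the glutaredoxin Glrx measured -0.95 (adjusted p = 0.0133). Srxn1, which repairs overoxidised peroxiredoxins, measured 0.89 (adjusted p = 0.0176) and the sestrin Sesn3 -0.43 (adjusted p = 0.0333) at 6 weeks.

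Among 9 NRF2 regulators, 3 were higher and 1 lower at 6 weeks, and 2 higher and 1 lower at 11 months. At 6 weeks Maff, a small Maf partner of NRF2, measured 1.89 (adjusted p = 0.0166), Sqstm1 measured 0.59 (adjusted p = 0.00525) and the repressor Bach1 measured -0.31 (adjusted p = 0.0322). At 11 months Mafg measured 0.53 (adjusted p = 0.00206), Sqstm1 measured 0.32 (adjusted p = 0.0193) and Cul3 measured -0.23 (adjusted p = 0.02). Nfe2l2, the gene of NRF2, passed at neither age, with -0.19 and 0.08. Of 19 other NRF2 targets and antioxidant genes, 4 were higher and 3 lower at 6 weeks, and 6 higher and 4 lower at 11 months. Among these Osgin1 measured 1.47 (adjusted p = 0.0124), Ccs, the copper chaperone of Sod1, measured -0.59 (adjusted p = 0.0035) and Blvrb, a biliverdin reductase, measured -0.48 (adjusted p = 0.00602) at 6 weeks. Ugdh measured 1.31 (adjusted p = 0.000203), Cbr3 measured 1.24 (adjusted p = 0.0035) and Ccs measured -1.09 (adjusted p = 6.35e-05) at 11 months. The selenium-handling genes include suppliers of the selenocysteine of thioredoxin reductases and of some glutathione peroxidases. Of 12 such genes listed, 2 were higher and 1 lower at 6 weeks, and 4 higher and 2 lower at 11 months. Selenbp1, a selenium-binding protein, measured -1.19 (adjusted p = 0.0299) at 6 weeks and 0.96 (adjusted p = 0.034) at 11 months, when Pstk, a kinase of selenocysteine synthesis, measured -1.04 (adjusted p = 0.000345).

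Markers of cell types were measured on the same arrays, and their summed intensities are given in units of 1000. Their counts stand beside 9.23% higher and 7.07% lower of all genes at 6 weeks and 18% and 16.8% at 11 months. At 6 weeks 7 of 10 general adipocyte markers were higher (976.5 to 1261 in the knockout, 496.1 to 1028 in the wild type), 3 of 10 endothelial markers were lower (23.5 to 27.1, against 28.4 to 30.01), 1 of 10 brown fat markers was lower, near the share of all genes (497.7 to 831.5, against 710.4 to 998.3), and 2 of 3 tested hepatocyte markers were higher (49.2 to 105.4, against 12.2 to 48.8). Within arrays the sums did not all go that way. On 6-week replicate 1 the knockout adipocyte sum was lower (976.5 against 1028) and the hepatocyte sums were close (49.2 against 48.3). On 6-week replicate 4 the knockout brown fat sum was higher (831.5 against 710.4). Of 10 brown fat markers, 0 were higher and 8 lower at 11 months, with a sum of 69.5 to 355.1 in knockout samples and 1226 to 1668 in wild-type samples. At that age 8 of 10 general adipocyte markers were higher (1385 to 2007 in the knockout, 470.6 to 869.9 in the wild type), as were 7 of 8 fibroblast markers (95.9 to 292.3, against 51.9 to 66.5) and 6 of 12 macrophage markers (25.1 to 43.1, against 22.5 to 28.8). The macrophage sums were close on 11-month replicates 1 (25.4 against 25.5) and 2 (25.1 against 25.3). The fibroblast median was 2.33 on 11-month replicate 3 and between 0.49 and 0.61 on the other 3. Replicate 3 also had the lowest knockout brown fat sum (69.5) and the highest knockout macrophage sum (43.1). Gsta3, Gstm1, Gstm2, Gstm3, Gstz1, Gpx8 and Mgst1 were highest on it, and the other members called higher at that age on another array. With the dye effect removed Gsta3 read 4.63, 4.73, 4.94 and 3.13 on replicates 1 to 4. Without replicate 3 Gsta3 measured 4.12 at 11 months (adjusted p = 0.000402). The part of any of these markers was not tested. Of 8 hepatocyte markers, Alb, Apoa1, Apoh, Ttr and Fgb did not pass the brightness filter, while Serpina1a measured 1.20 (adjusted p = 0.0148), Cyp2e1 4.11 (adjusted p = 4.07e-05) and Tat -0.11 (adjusted p = 0.117) at 11 months, with a sum of 146.9 to 176.9 in the knockout and 6.54 to 17.9 in the wild type. Summed skeletal muscle markers ran from 91.4 to 853.1 in the knockout and from 104.4 to 595 in the wild type at 11 months. At 6 weeks they ran from 8.8 to 44.4 and from 4.5 to 187.5. The part of any other cell type in the changes of the redox enzymes was not tested.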

How the data were processed

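The authors scanned the arrays with Agilent Feature Extraction (10.5.1.1 for the younger and 10.10.1.1 for the older mice, per the file headers), which wrote spot intensity, local background and a normalized log10 ratio. The deposited value table holds log2 ratios, with no statement of their normalization; limma is named in the submitters' processing notes. Its rows were matched to spots by running number, and its sign followed the dye of the knockout.

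Here intensities were corrected with normexp (offset 50, which shrinks ratios of dim probes) and loess in limma 3.58.1 (R 4.3.3), controls and flagged spots having weight 0. Probes well above background in at least 4 of 16 channel measurements, with values on 3 arrays per age, were kept, which left 26763, and the brightest probe stood for its gene. 1 model held both ages and a shared dye term (5 residual degrees of freedom). P-values were adjusted by Benjamini-Hochberg over 21675 genes, of which 14789 were named through RefSeq accessions. The model was tested on simulated data.

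Every member called in any comparison is named with its values, and other tested members by range. Pathway genes are named, up to 3 per comparison, from those called with the largest change. The members and lists were chosen with earlier results of these data known. The number of arrays limits the precision.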

Additional observations from a re-analysis of the deposited data

Results flagged for a closer look

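Among the 96 sets of 4 arrays (48 genes at 2 ages), 3 held an array that lay far from the others by Dixon's criterion, which compares the gap to the nearest array with the range of the set. Chance marks about 1 in 20 such sets. Gclm on 6-week replicate 1, at 1.55, had a gap of 0.909 of the range. Gstm1 on 11-month replicate 3, at 1.36, had a gap of 0.863. Prdx1 on 11-month replicate 3, at 0.11, had a gap of 0.853.

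The knockout over wild type log2 ratio differed between 11 months and 6 weeks for 23 enzymes, by the contrast of both ages in 1 limma model with Benjamini-Hochberg adjustment over all 21675 genes. It was higher at 11 months by 3.80 for Gsta3, 1.46 for Gstz1, 1.19 for Gstt1, 1.12 for Gstm2, 1.09 for Gstm1, 1.03 for Gstt3, 0.89 for Gstm3, 0.83 for Mgst3, 0.73 for Gstk1 and 0.71 for Gstm4. It was lower at 11 months, with differences of -1.18 for Sod2, -1.08 for Txnrd2, -0.84 for Txn2, -0.73 for Gsto2, -0.63 for Prdx5, -0.63 for Prdx2, -0.62 for Prdx3, -0.56 for Txn1, -0.56 for Gsto1, -0.53 for Gpx4, -0.48 for Gclc, -0.43 for Txnrd1 and -0.29 for Gstm5. The adjusted p ran from 0.00128 for Sod2 to 0.0394 for Mgst3. The other Gstm4 probe gave -0.30 (adjusted p = 0.0469 in the same contrast fitted over probes), so the direction for Gstm4 depended on the probe. Each age was run as its own batch on its own slide, so age and batch cannot be told apart in these differences.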

How the results depend on the processing

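Under the settings tried, 21 of 70 calls of single enzymes in the 3 comparisons passed every time, among them Gsta3, Sod2, Txn2, Txnrd2, Prdx5 and Mgst2 at 11 months. No call of an enzyme changed its direction under these settings. For Gstm4 and Prorsd1, whose direction depended on the probe, no setting took the dimmer probe alone. In all, 205 values fell below the threshold under a setting while 29 rose past it. Where each replicate was left out in turn, members called higher at 6 weeks ran from 5 to 14 and lower from 2 to 5, and all genes called ran from 1241 to 4298 at 6 weeks, from 5035 to 7651 at 11 months and from 2130 to 3234 in the difference between ages. With median centring 2 members were higher and 1 lower at 6 weeks, 5 lower at 11 months, and 5 higher and 1 lower in the difference, with 959, 4910 and 553 of all genes called, and the members' medians were 0.29 and 0.25. The scanner software's ratio gave 5 members higher and 2280 genes at 6 weeks. Without a dye term 2528 genes were called in the difference. The members' median at 11 months was 0.041 with no filter on dim probes and 0.0595 with all 16 channel measurements required. In these cases the cause was not tested. Without the 3 arrays of strongest muscle marker ratios, a setting chosen after seeing the data, 2 members were higher and 1 lower at 6 weeks with 1147 genes called and a median of -0.012, and in the difference 2 were higher and 2 lower with 591 genes called.

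Values that had not passed crossed 0 in places. With median centring these were, at 6 weeks, Gstm1 at 0.15, Gstm3 at 0.14, Gstm4 at 0.062, Gsto1 at 0.24, Prdx2 at 0.18, Prorsd1 at 0.17, Sod2 at 0.17 and Txn2 at 0.0797, and at 11 months Gclc at 0.095 and Prdx1 at 0.11. The scanner software's ratio gave Gsto2 at -0.0069 and Gstt1 at -0.0068 at 6 weeks, and an offset of 10 gave Gsto2 at -0.0035. The mean of all probes gave Prorsd1 at 0.11 at 6 weeks and -0.0204 in the difference, and Prdx1 at 0.014 at 11 months. Without the muscle-marked arrays Gpx4 was -0.0014, Gpx7 -0.044, Gstm2 -0.084, Gsto1 0.14, Gsto2 -0.063, Gstt1 -0.40 and Prdx3 -0.16 at 6 weeks, and Nqo1 was -0.11 in the difference. Leaving out 1 replicate gave ranges at 6 weeks of -0.058 to 0.038 for Gsto1, -0.088 to 0.097 for Gsto2, -0.099 to 0.13 for Gstt1, -0.034 to 0.13 for Prdx3 and -0.14 to 0.013 for Prorsd1. At 11 months they were -0.047 to 0.18 for Gstk1 and -0.073 to 0.022 for Prdx1, and in the difference -0.48 to 0.062 for Mgst2 and -0.26 to 0.042 for Sod3.

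Replicate numbers are shared between the ages, but the labels do not say that they pair samples. Same-numbered arrays carried the knockout in opposite dyes at the 2 ages. With a shared dye effect removed they correlated at 0.459, 0.441, 0.168 and 0.317, and replicate 3 correlated better with another number (0.445). With the dye effect removed within each age the values were 0.0931 for replicates 1 and 2 and -0.061 for replicates 3 and 4, where that removal makes the values equal in pairs. Whether the numbers pair the samples is not settled by either, and the fit without the block is the one reported. A fit with the replicate block called 12 members higher and 4 lower at 6 weeks, 20 higher and 13 lower at 11 months, and 12 higher and 13 lower in the difference. Under the block the 6-week calls of Gstt3 (adjusted p = 0.0794) and Gstp2 (adjusted p = 0.0671) and the difference of Gstm5 (adjusted p = 0.061) were not made. The slide as a random block was not run, since each age lies on 1 slide and the slide is then the age.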
